A study of Mus musculus with 12 samples.

Results

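The 31 genes described here are markers of microglia, the resident macrophages of the brain. They were taken by name from the deposited table of read counts, which lists 18394 genes. All 31 were in the table and all 31 passed the filter on low counts that left 15467 genes for testing. They were measured by stranded mRNA sequencing of whole mouse cerebella. The 6 cKO libraries came from mice labelled conditional knock-out (Δα6-Cre Crfr1 knock-out), and the 6 WT libraries from wild-type mice. Crfr1, a receptor for the stress peptide corticotropin-releasing factor, is listed in the table as Crhr1. The labels give the genotype of each animal but not its strain, age or sex. They describe no Cre-only animals, so Cre expression and receptor loss cannot be told apart as sources of a difference. Δα6-Cre takes its name from a GABA-A receptor subunit, α6, which the gene Gabra6 encodes and which granule cells make, not microglia.

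Microglia enter the brain early in development and then live from signals of their neighbours. The cytokines CSF1 and IL-34 keep them alive through the receptor CSF1R, neuronal fractalkine holds CX3CR1, and nucleotides released by stressed cells draw their processes through P2RY12. They make the C1q chains that tag synapses and debris for removal, and sense lipids and dying cells through TREM2 and its adaptor TYROBP. The transcription factor PU.1, the product of Spi1, is required for the whole lineage. In the cerebellum they lie among granule cells, Purkinje cells and glia as a minor population, so a count from the whole tissue sums what many cell types make. In such bulk samples more cells of a type and more RNA per cell cannot be told apart.

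Libraries held 32.3 to 58.7 M counts in cKO and 23.8 to 62.1 M in WT (M, 1000000 counts). Depth differed between the groups, with a median of 52.13 M in cKO and 31.01 M in WT. WT 1, WT 2, WT 4 and WT 5 lay below every cKO library, WT 3 within the cKO range and WT 6 above it. A microglia gene received between 26 and 4696 counts in a library. The knocked-out gene gave no check of the labels. Crhr1 measured 98.8 ± 6.00 CPM in cKO and 97.6 ± 4.30 CPM in WT (SD, n = 6 each; CPM, counts per M after TMM scaling), and its log2 fold change of 0.02 was not called (Benjamini-Hochberg adjusted p = 0.889 by the quasi-likelihood test of edgeR). Counts are given as 1 value per gene, so reads from a deleted part cannot be seen apart. The reason for the similar levels was not tested. Gabra6 fell by 0.38 on the log2 scale (adjusted p = 1.45e-05, same test). The defining markers of cerebellar neurons were abundant in both groups, with a summed granule cell marker level of 6685 to 7196 CPM in cKO and 6932 to 7181 CPM in WT.

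Microglial transcripts differed little between the genotypes. Of the 31 genes, 2 rose in cKO cerebella, the fractalkine receptor Cx3cr1 by 1.16-fold and the CSF1 receptor Csf1r by 1.11-fold, and 0 fell, while 29 were not called. Over all 15467 tested genes 2.64% were called, with 1.27% of the 15467 higher and 1.38% lower in cKO. At an unadjusted p under 0.05, 8 of the 31 were higher and 0 lower, where 7.16% of all tested genes were higher. The estimated fold was above 1 for 28 of the 31 and for 49.8% of all tested genes. The median log2 fold change of the 31 was 0.12, a fold of 1.09, and that of all tested genes was −0.00027. Estimates ran from −0.02 to 0.27, and for 23 genes the 95% interval held 0. In 0 of the 31 did the cKO and WT values fail to overlap, which they did in 2.09% of all tested genes. Members were not independent of one another, since they covaried over the same 12 libraries.

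**Figure D1:**
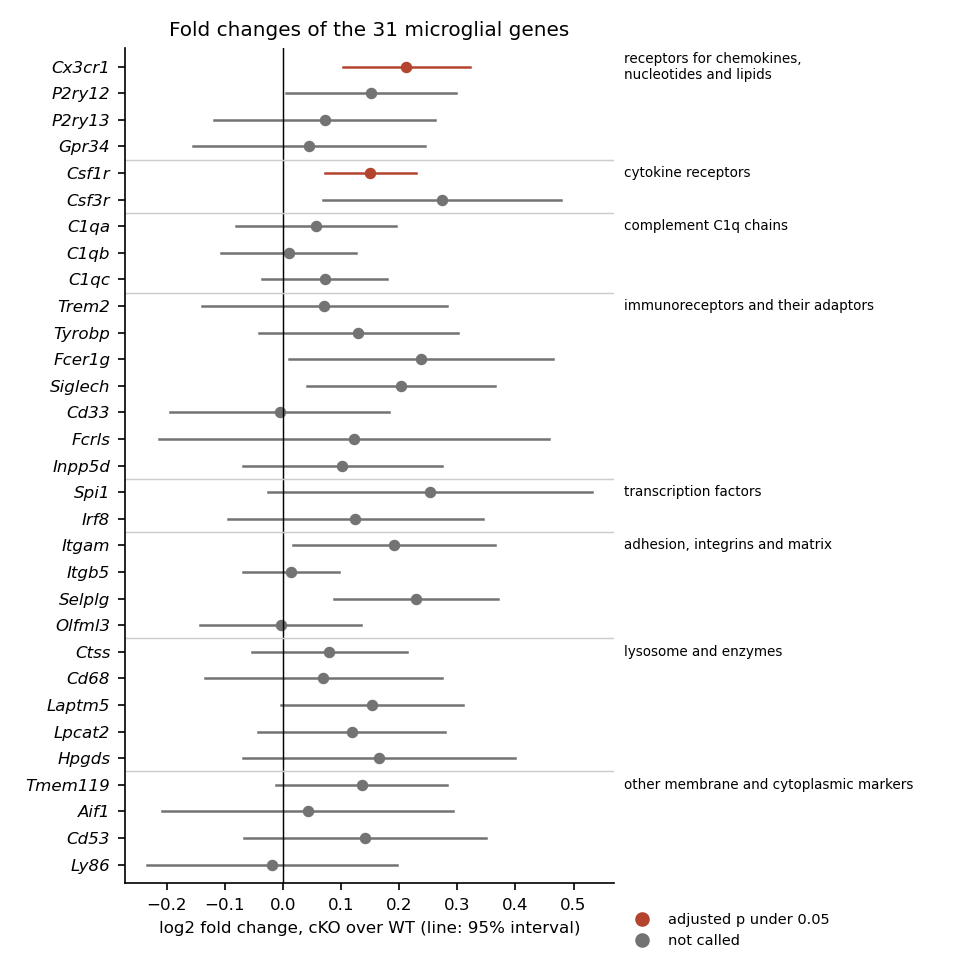
Log2 fold change of each microglia gene, cKO over WT, grouped by role, with its 95% interval from the edgeR quasi-likelihood test on 6 cKO and 6 WT libraries. Red points are the 2 called genes, Cx3cr1 and Csf1r, grey points the 29 that were not called; 28 points lie right of 0.

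Among receptors for chemokines, nucleotides and lipids, Cx3cr1 rose and the other 3 were not called. Cx3cr1 (GENCODE M21 on mm10, chr9:119901616-120069879, minus strand) measured 14.1, 15.1 and 17.9 CPM (lowest, median, highest) in cKO and 12.8, 13.3 and 14.1 CPM in WT. In 5 of the 6 cKO libraries it lay above every WT library, and the remaining cKO library fell within the WT range. The log2 fold change was 0.21 (SE 0.05, 95% interval 0.10 to 0.32; adjusted p = 0.0331 by the same edgeR test; two-sided exact permutation test of this gene alone, p = 0.00433). The call was lost when any 1 of 6 libraries was left out: adjusted p was 0.0627 without WT 1, 0.0584 without WT 2, 0.0929 without WT 3, 0.0673 without WT 5, 0.0548 without WT 6 and 0.0696 without cKO 3, with the log2 fold change between 0.17 and 0.24 in all 12 such fits.

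P2ry12, the ADP receptor that guides microglial processes, measured 11.2, 12.4 and 13.2 CPM (lowest, median, highest) in cKO and 9.34, 11.1 and 12.7 CPM in WT. In 4 of the 6 WT libraries it lay below every cKO library and in 2 cKO libraries above every WT library, with the rest overlapping, and the log2 fold change of 0.15 (SE 0.07) was not called (adjusted p = 0.328). P2ry13, another ADP receptor encoded beside it on chromosome 3, had a log2 fold change of 0.07 (SE 0.09, adjusted p = 0.793). Gpr34, a receptor for lysophosphatidylserine, had 0.04 (SE 0.10, adjusted p = 0.891).

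**Figure D2:**
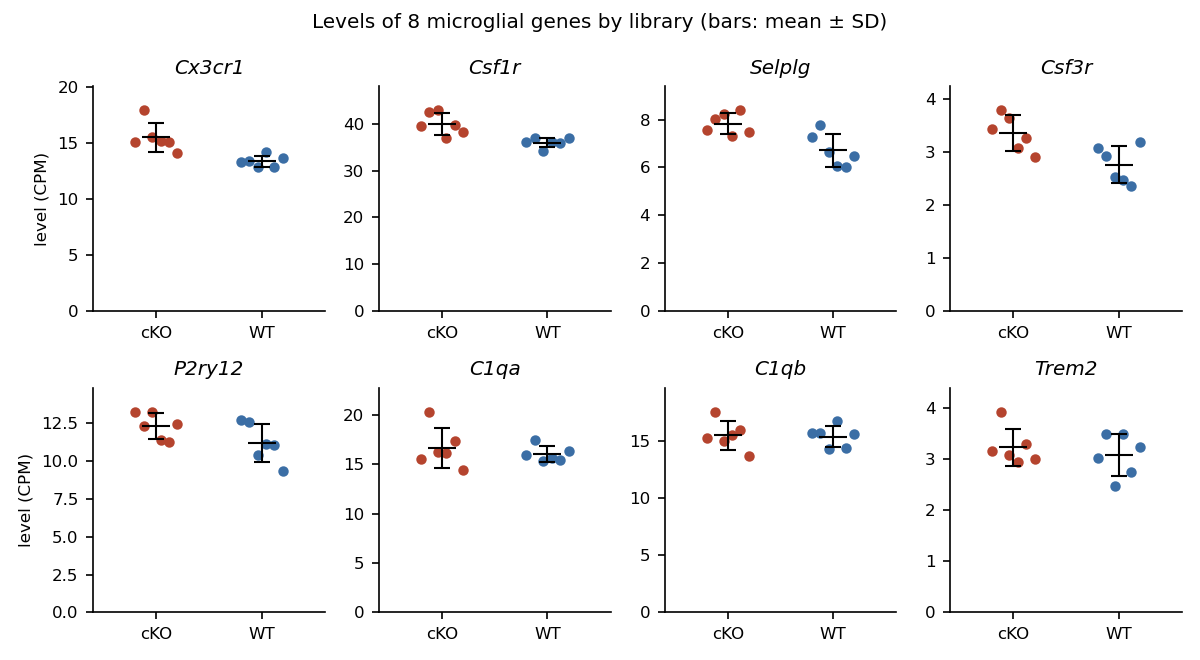
Levels of 8 microglia genes in CPM (linear axes starting at 0), with 1 point per library, cKO in red left of WT in blue, and bars for the mean ± SD of 6 libraries. Cx3cr1 and Csf1r sit higher in 5 of 6 cKO libraries than in any WT library, while C1qa, C1qb and Trem2 have 1 cKO library above the WT range.

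Of the cytokine receptors, Csf1r rose. Csf1r (chr18:61100598-61132149, plus strand) measured 36.8, 39.6 and 42.9 CPM (lowest, median, highest) in cKO and 34.3, 36.1 and 36.9 CPM in WT. Again 5 of the 6 cKO libraries exceeded every WT library. On the log2 scale the fold change was 0.15 (SE 0.04, 95% interval of 0.07 to 0.23; edgeR adjusted p = 0.0352; two-sided exact permutation p = 0.00649). Adjusted p was above the threshold without WT 1 (0.0668), WT 3 (0.108), WT 4 (0.0675), WT 5 (0.0627), cKO 1 (0.0574), cKO 2 (0.0818) or cKO 3 (0.0960), and the log2 fold change stayed between 0.13 and 0.17. Of the annotated exon length of Csf1r, 15.1% lies opposite exons of Hmgxb3, whose own log2 fold change was −0.03 (adjusted p = 0.728). Whether the counts used strand is not given in the sources used here.

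Csf3r, the receptor for granulocyte colony-stimulating factor, had the largest estimate of the 31 genes. It measured 2.91, 3.35 and 3.79 CPM (lowest, median, highest) in cKO and 2.36, 2.73 and 3.19 CPM in WT. Its log2 fold change of 0.27 (SE 0.10) was not called in the fit over all genes (adjusted p = 0.181), and 2 of the 6 cKO libraries lay within the WT range.

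The ligands of these receptors were examined beside them in a list of 14 tested ligands and partners, of which 1 rose and 0 fell (median log2 fold change 0.03). Csf1 itself was the gene that rose. It measured 29.0, 31.5 and 35.3 CPM (lowest, median, highest) in cKO and 22.3, 27.2 and 29.0 CPM in WT, and all 6 cKO libraries lay above all 6 WT libraries. The log2 fold change was 0.24 (SE 0.05, fold 1.18, edgeR adjusted p = 0.0135; two-sided exact permutation p = 0.00216, the smallest that 924 assignments allow). Csf1 stayed called in all 12 fits that left out 1 library (adjusted p 0.0102 to 0.0352). It was not called without the 4 libraries highest in markers of brain regions outside the cerebellum (cKO 1, cKO 2, cKO 3 and WT 5). There its log2 fold change was 0.25 (edgeR adjusted p = 0.0656). The other CSF1R ligand, Il34, had a log2 fold change of 0.03 (adjusted p = 0.927), and Cx3cl1, which encodes fractalkine, had 0.04 (adjusted p = 0.656). Both were singled out as ligands of the called receptors after their values were seen. Also in that list, Entpd1, the ectonucleotidase that degrades extracellular ATP and ADP, had 0.20 (adjusted p = 0.144), Clu, a secreted chaperone, had 0.07 (adjusted p = 0.0794) and Apoe, the lipid carrier, had −0.07 (adjusted p = 0.123).

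The 3 chains of C1q, the molecule that starts the classical complement cascade, were not called and lay close to equal levels. Their genes stand in a cluster on chromosome 4, between 136880129 and 136898803. C1qa measured 14.4, 16.2 and 20.4 CPM (lowest, median, highest) in cKO and 15.3, 15.8 and 17.4 CPM in WT. C1qb measured 13.7, 15.4 and 17.6 CPM in cKO and 14.3, 15.6 and 16.7 CPM in WT. For both, the cKO libraries spread on either side of the WT range. C1qc measured 12.6, 13.6 and 14.7 CPM in cKO and 12.3, 12.7 and 14.0 CPM in WT. Log2 fold changes were 0.06 for C1qa (95% interval −0.08 to 0.19), 0.01 for C1qb (−0.11 to 0.13) and 0.07 for C1qc (−0.04 to 0.18), with adjusted p from 0.574 to 0.965. Of 14 further complement genes, 0 rose and 0 fell (9 positive, median log2 fold change 0.05). Those with the smallest p were Serping1, the inhibitor of C1 proteases, at −0.18 (adjusted p = 0.105), Itgb2, the integrin chain that pairs with Itgam, at 0.29 (adjusted p = 0.213), and the membrane inhibitors Cd59a at 0.20 (adjusted p = 0.377) and Cd55 at −0.16 (adjusted p = 0.468).

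None of the 7 immunoreceptors and adaptors was called by edgeR (median log2 fold change 0.12, 6 positive). Trem2, the lipid-sensing receptor, measured 2.94, 3.12 and 3.93 CPM (lowest, median, highest) in cKO and 2.48, 3.13 and 3.49 CPM in WT, with a log2 fold change of 0.07 (SE 0.10, adjusted p = 0.819). Its adaptor Tyrobp had 0.13 (SE 0.08, adjusted p = 0.510). Fcer1g, the common signalling chain of activating Fc receptors, had 0.24 (SE 0.11, adjusted p = 0.326). Siglech, a sialic acid-binding lectin, measured 4.77, 5.41 and 6.19 CPM in cKO and 4.25, 4.56 and 5.32 CPM in WT. Its upper 4 cKO libraries exceeded the WT range, and the log2 fold change of 0.20 (SE 0.08) was not called (adjusted p = 0.218). Cd33, a lectin of the same family, had −0.01 (SE 0.09, adjusted p = 0.990). Inpp5d, the lipid phosphatase SHIP1 that limits signalling downstream of immunoreceptors, had 0.10 (SE 0.08, adjusted p = 0.632).

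Fcrls, an Fc receptor-like gene, was the most variable of the 31 within WT, with a coefficient of variation of 32.0%. It measured 3.56, 3.82 and 5.16 CPM (lowest, median, highest) in cKO and 2.53, 3.24 and 5.06 CPM in WT. WT 1, WT 2 and WT 3 lay at 2.53 to 2.76 CPM and WT 4, WT 5 and WT 6 at 3.72 to 5.06 CPM. Its log2 fold change of 0.12 had the widest error of the 31 (SE 0.16, adjusted p = 0.801).

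Signalling genes downstream of TREM2 and TYROBP gave 0 calls among 14 tested, with 12 positive estimates and a median log2 fold change of 0.11. Fyb, an adaptor of integrin and immunoreceptor signalling, had 0.34 (adjusted p = 0.0870), Dok3, an inhibitory adaptor, 0.22 (adjusted p = 0.169), the phospholipase Plcg2 0.18 (adjusted p = 0.348) and the phosphatase Ptpn6 0.21 (adjusted p = 0.467).

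Neither of the transcription factors was called. Spi1 measured 0.835, 1.19 and 1.25 CPM (lowest, median, highest) in cKO and 0.850, 0.927 and 1.18 CPM in WT. In 4 cKO libraries it lay above every WT library, whereas the lowest value of all 12 was also from cKO. The log2 fold change was 0.25 (SE 0.13, 95% interval −0.03 to 0.53, adjusted p = 0.407). Irf8, an interferon regulatory factor that partners PU.1, had 0.12 (SE 0.10, adjusted p = 0.654).

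PU.1 binds a purine-rich box around a GGAA core, and RefSeq promoters (GRCm38.p6, 250 bases before to 50 after the start) were available for 24 of the 31 genes. The box searched was GAGGAAGT, on either strand (ACTTCCTC on the other). It stood in 5 of the 24 promoters (20.8%), against 3.69% of 27025 genes in the promoter table and 3.46% of the 13408 that are also in the count table. The shorter core GGAA or TTCC, which the box contains, was in 95.8% of the 24 and in 96.5% of all. A match is a string of letters and was not tested as a binding site. The holders were C1qc, Cd53, Ctss, Hpgds and Inpp5d, none of them a called gene. Of these, 4 are shown on the strand of the gene, with the box in capitals, because they let the flanks of the shared box be compared.
C1qc (chr4:136893082-136893129, minus strand): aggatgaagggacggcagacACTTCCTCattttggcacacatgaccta
Ctss (chr3:95526764-95526811, plus strand): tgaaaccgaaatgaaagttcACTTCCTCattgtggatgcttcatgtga
Hpgds (chr6:65144752-65144799, minus strand): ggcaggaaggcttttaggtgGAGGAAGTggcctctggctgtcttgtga
Inpp5d (chr1:87620272-87620319, plus strand): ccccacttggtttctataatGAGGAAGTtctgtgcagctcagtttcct

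The promoter of Cx3cr1, the called gene with an entry in the promoter table, did not hold the box and is shown for contrast. These 250 bases before its start hold the core 2 times, in capitals.
Cx3cr1 (chr9:120068297-120068546, minus strand): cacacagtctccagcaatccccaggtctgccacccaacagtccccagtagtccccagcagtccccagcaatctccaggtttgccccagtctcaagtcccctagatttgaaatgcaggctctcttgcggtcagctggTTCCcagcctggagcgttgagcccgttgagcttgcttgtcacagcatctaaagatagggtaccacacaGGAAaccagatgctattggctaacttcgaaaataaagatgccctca

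Adhesion and matrix genes were not called by edgeR. Selplg, the ligand of P-selectin, came nearest. It measured 7.30, 7.80 and 8.39 CPM (lowest, median, highest) in cKO and 6.01, 6.57 and 7.78 CPM in WT, and 3 cKO libraries exceeded the WT range. Its log2 fold change was 0.23 (SE 0.07, edgeR adjusted p = 0.0846). DESeq2 on the same counts called it (adjusted p = 0.0411), as did edgeR without WT 2 (adjusted p = 0.0301), and the authors' deposited table lists it with an adjusted p of 0.0428. Itgam, the αM integrin chain CD11b, had 0.19 (SE 0.08, adjusted p = 0.293), although 68.7% of its exon length is shared with an overlapping gene model on the same strand, Gm49368. Itgb5, the β5 integrin chain, measured 71.2, 74.3 and 86.1 CPM in cKO and 73.4, 75.9 and 79.5 CPM in WT, a log2 fold change of 0.01 (SE 0.04, adjusted p = 0.920). Olfml3, a secreted matrix protein, averaged 10.4 ± 1.04 CPM in cKO and 10.4 ± 0.752 CPM in WT (SD, n = 6 each; edgeR adjusted p = 0.992).

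None of the 5 lysosomal and enzyme genes was called, and all 5 estimates were positive (0.07 to 0.17 on the log2 scale). Ctss, the lysosomal protease cathepsin S, measured 29.9, 32.9 and 39.2 CPM (lowest, median, highest) in cKO and 29.1, 31.1 and 37.0 CPM in WT, with a log2 fold change of 0.08 (adjusted p = 0.631). Cd68, a lysosomal membrane protein of phagocytes, had 0.07 (adjusted p = 0.817) and Laptm5, a lysosomal transmembrane protein, 0.15 (adjusted p = 0.366). Lpcat2, which remodels phospholipids and makes platelet-activating factor, had 0.12 (adjusted p = 0.527), and 8.47% of its exon length lies opposite an antisense gene. Hpgds, the haematopoietic prostaglandin D synthase, had 0.17 (adjusted p = 0.547).

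The 4 remaining markers were not called either. Tmem119, a membrane protein used to tell microglia from blood-derived macrophages, measured 5.77, 5.94 and 6.57 CPM (lowest, median, highest) in cKO and 4.67, 5.62 and 6.21 CPM in WT (log2 fold change 0.14, SE 0.07, adjusted p = 0.396). Aif1, which encodes the calcium-binding protein IBA1, had 0.04 (SE 0.12, adjusted p = 0.930). Cd53, a tetraspanin of leukocytes, had 0.14 (SE 0.10, adjusted p = 0.565) and Ly86, the partner of the toll-like protein CD180, −0.02 (SE 0.10, adjusted p = 0.961).

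Levels of the 31 genes spanned a wide range per length. Divided by annotated exon length, mean levels were highest for Ctss at 23.9 CPM per kb, Itgb5 at 21.5, C1qa at 15.7 and C1qb at 14.2, followed by Tyrobp at 6.99, C1qc at 6.90 and Csf1r at 6.57. They were lowest for Irf8 at 0.266 and Cd33 at 0.301 CPM per kb. The called receptor Cx3cr1 stood at 3.20 CPM per kb.

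Microglial levels also varied between libraries within each genotype. cKO 2 held the highest level of 17 of the 31 genes, where it held that of 10.1% of all tested genes. It ranked among the top 3 libraries for 28 genes and lay above the 12-library mean for 30. At the other end WT 3 held the lowest level of 8 genes, where it held that of 8.08% of all tested genes, and lay above the mean for only 3. The mean of the 31 centred log2 levels was −0.02, 0.03 and 0.22 (lowest, median, highest) in cKO and −0.14, −0.06 and 0.03 in WT, so the groups overlapped. Summed over the 31 genes, levels were 309, 327 and 358 CPM in cKO and 296, 309 and 331 CPM in WT. Without Itgb5, the most abundant of the 31 in CPM, the sums ran from 236 up to 284 CPM in cKO and 220 up to 252 CPM in WT.

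**Figure D3:**
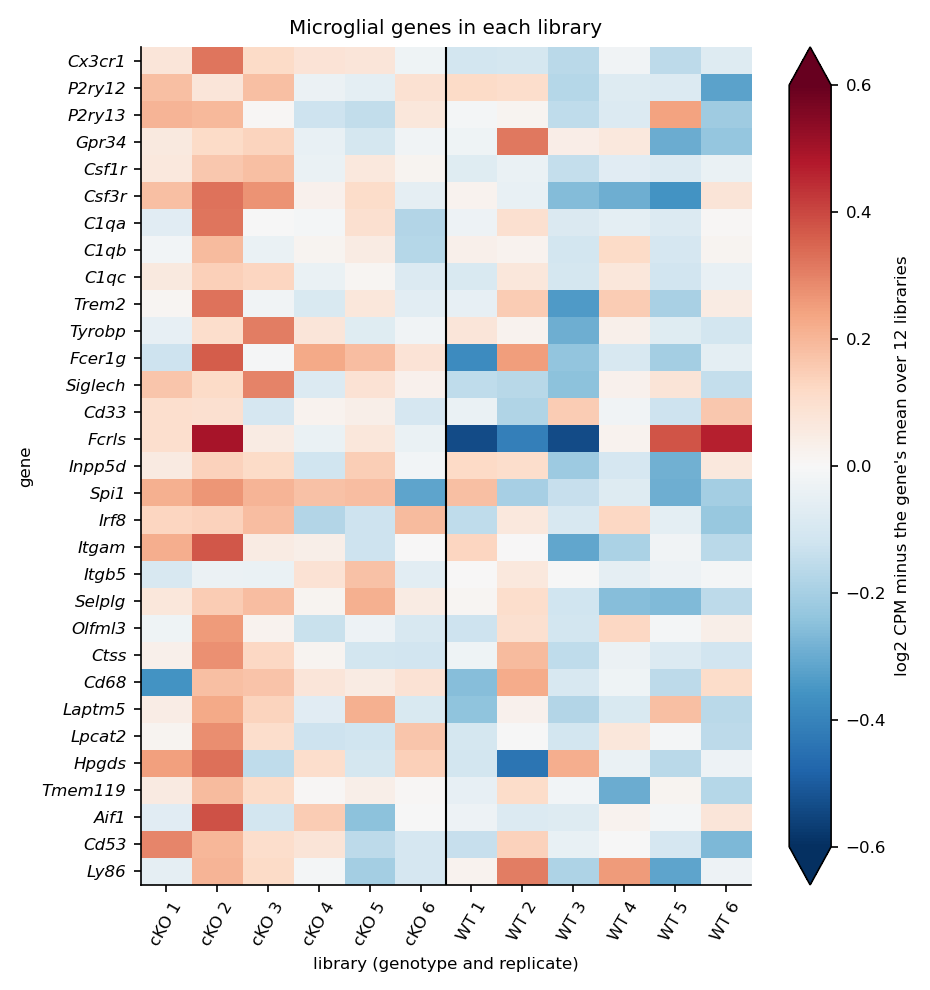
Level of each microglia gene in each library, as log2 CPM minus the mean of that gene over 12 libraries (colour, red high and blue low), with cKO libraries left of the line and WT libraries right of it. cKO 2 is red in 30 of 31 rows, and Fcrls has the strongest contrasts, among the WT libraries.

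**Figure D4:**
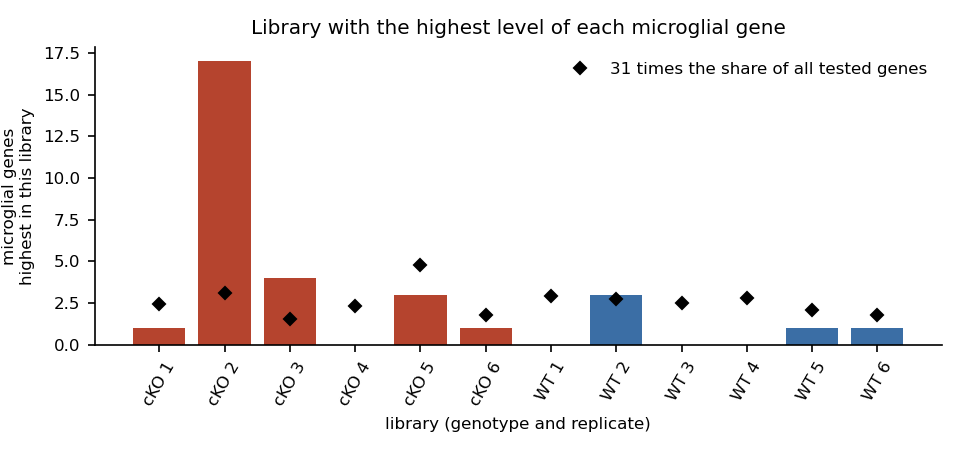
Number of the 31 microglia genes whose highest level fell in each library (bars, cKO red, WT blue), beside the number that the share of all tested genes would give for 31 genes (diamonds). The bar of cKO 2 reaches 17, and that of the next library, cKO 3, reaches 4.

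The microglia genes covaried across animals. With the genotype mean removed from log2 levels, the 465 pairs of members had a median Pearson r of 0.28 (quartiles 0.02 and 0.48), and 360 pairs (77.4%) were above 0. Over all pairs of tested genes the median was −0.002 and 49.8% were above 0. An r above 0.5 occurred in 22.6% of member pairs and 8.19% of all pairs. Part of this came through 1 library: without cKO 2 the median was 0.16 and 302 member pairs were above 0. The points of each r are 12 libraries of the same tissue that differ in depth, and the r values are descriptions without a test.

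Members differed in how closely they followed the rest. Ctss had the highest median r with the other 30 genes, 0.54, followed by Ly86 at 0.49 and C1qc and C1qa at 0.47. Itgb5 at −0.13, Cd33 at −0.15 and Hpgds at −0.18 did not follow the others, although Cd33 and Hpgds tracked each other with an r of 0.76. By the same measure the gene most like Cx3cr1 was C1qb, with an r of 0.90, and the one most like Csf1r was C1qc, with 0.77.

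Over the 12 libraries, 10 pairs of members were correlated on log2 levels, with permutation tests of 100000 resamples adjusted over the 10 pairs. Some pairs share a complex, a signalling unit or a receptor class. Others do not, such as Csf1r and Cx3cr1, which stand in different receptor groups above. These are also the 2 called genes, so their r over 12 libraries includes the genotype difference. For Csf1r and Cx3cr1, r was 0.86 (permutation p = 0.00023, adjusted 0.0023) and Spearman's rho 0.82 (permutation p = 0.00165, adjusted 0.0165). Within cKO r was 0.64 and within WT 0.57, each over 6 libraries and not passing (exact permutation, adjusted p = 0.333 and 0.590). With cKO 2 and cKO 3 left out, the libraries farthest from the median of Csf1r, r was 0.78 (permutation, adjusted p = 0.0703), and with the genotype means removed it was 0.63 (permutation, adjusted p = 0.141). Neither value passed the threshold.

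For C1qa and C1qb, r was 0.79 (permutation p = 0.00185, adjusted 0.00925) and rho 0.73 (permutation p = 0.00868, adjusted 0.0434). Without cKO 2 and cKO 6, the highest and lowest libraries in C1qa, r was 0.44 and did not pass (permutation, adjusted p = 0.393). Leaving out the extremes narrows the range and can lower r by itself. Within cKO r was 0.96 and within WT 0.39 (exact permutation, adjusted p = 0.0833 and 0.639). Leaving out cKO 2 alone gave 0.65 (permutation, adjusted p = 0.146) and leaving out cKO 6 alone 0.74 (permutation, adjusted p = 0.0546). The other 8 pairs did not pass, with adjusted permutation p from 0.0546 to 0.887. Tyrobp and its partner receptor Trem2 had an r of 0.47. P2ry12 and P2ry13 had an r of 0.60, and Spi1 and Irf8 of 0.04.

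**Figure D5:**
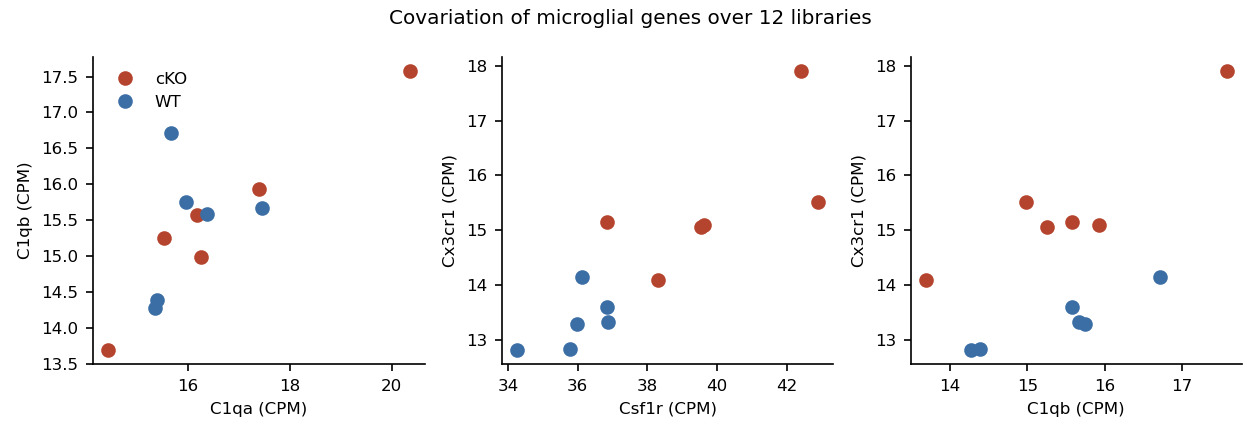
Levels of C1qb against C1qa, of Cx3cr1 against Csf1r and of Cx3cr1 against C1qb, in CPM, 1 point per library, cKO red and WT blue; axes do not start at 0. The upper right point in the left and right panels is cKO 2, and in the right panel the cKO points lie above the WT points at similar C1qb levels.

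Relative to C1qb, Cx3cr1 was higher in every cKO library. The ratio of their levels was 0.947, 1.003 and 1.035 (lowest, median, highest) in cKO and 0.845, 0.862 and 0.898 in WT, without overlap. This ratio was picked after its values were seen and has no test. Only 3 of the 465 member pairs (0.645%) had ratios that did not overlap, all with Cx3cr1 on top (over C1qb, C1qc or Olfml3), against 2.04% of all pairs of tested genes. The 465 pairs come from 31 genes that covary, and the difference between these shares was not tested.

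Other lists place the 2 calls beside related cells and states. Of 34 tested further microglia-enriched genes, 0 rose and 1 fell, with 22 positive estimates and a median log2 fold change of 0.05. The gene that fell was Golm1, a Golgi membrane protein, at −0.11 (edgeR adjusted p = 0.0128), and 29.3% of its exon length lies opposite Naa35. It was not called on thinned counts (adjusted p = 0.0976), without cKO 1, cKO 2, cKO 3 and WT 5 together (adjusted p = 0.164) or with surrogate variables (adjusted p = 0.0776). Cst3, the protease inhibitor cystatin C, had 0.09 (adjusted p = 0.121). Among 16 tested genes of activated microglia 2 rose and 0 fell (10 positive, median 0.04). They were Csf1 and Ctsb, the protease cathepsin B, which is made by many cell types. Ctsb had a log2 fold change of 0.10 (edgeR adjusted p = 0.0210). It was not called without WT 3 (adjusted p = 0.0570), without cKO 1, cKO 2, cKO 3 and WT 5 together (adjusted p = 0.251) or with surrogate variables (log2 fold change 0.08, adjusted p = 0.509). Exons of Fdft1 lie opposite 12.8% of its exon length. Cd63, a tetraspanin of endosomes, had −0.05 (adjusted p = 0.428).

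Markers of other blood-borne and border cells gave 0 genes called higher in cKO, although estimates for monocyte and neutrophil genes were mostly positive. Of 12 border-associated macrophage genes 0 were called, 6 were positive and the median log2 fold change was −0.01; their summed level was 28.7 to 35.5 CPM in cKO and 29.9 to 34.1 CPM in WT. Clec10a, a lectin of those macrophages, had the smallest p, at −0.31 (adjusted p = 0.213), followed by Cd209f, Stab1 and Mrc1 with adjusted p of 0.537 to 0.734. Clec10a measured 0.866 to 1.39 CPM in cKO and 1.45 to 1.56 CPM in WT, without overlap, as held for 2.09% of all tested genes. Of 13 monocyte and neutrophil genes 7 were tested, with a median log2 fold change of 0.70, and 0 rose and 1 fell. That gene was Itgal, the αL integrin chain of leukocytes, which measured 1.01, 1.32 and 1.59 CPM (lowest, median, highest) in cKO and 1.86, 2.47 and 2.67 CPM in WT, without overlap (log2 fold change −0.87, SE 0.12, edgeR adjusted p = 0.00029). The other 6 had positive estimates, S100a9 with 0.93 (adjusted p = 0.108), S100a8 with 0.70 (adjusted p = 0.405) and Ltf with 1.03 (adjusted p = 0.407) among them. For S100a9, 5 of the 6 cKO libraries lay above every WT library. The mean centred log2 level of the 7 tested genes was highest in cKO 4 (0.92) and cKO 1 (0.63) and lowest in cKO 6 (−0.64). The list's summed level was 3.77 to 11.1 CPM in cKO and 4.69 to 6.85 CPM in WT, and 0 of the 13 genes were at 0 in all libraries. The part of these cells in the Cx3cr1 and Csf1r values was not tested. Of lymphocyte genes 2 of 12 could be tested and of erythrocyte genes 2 of 6, with 0 calls.

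Among vessel markers, all 10 endothelial genes had positive estimates and 0 were called (median log2 fold change 0.06; Itm2a 0.08, adjusted p = 0.333), while 4 of 7 mural cell genes were positive with 0 calls and a median of 0.004. Lists of meninges and choroid plexus (11 tested), oligodendrocytes (9), astrocytes and Bergmann glia (8) and Purkinje cells (7) had 0 calls each, with medians of −0.09, −0.03, 0.01 and −0.03. Of 10 granule cell genes 1 rose, Etv1, and 3 fell, Gabra6, Zic1 and Pax6.

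Markers of brain regions outside the cerebellum were highest in cKO 1, cKO 3, WT 5 and cKO 2. The 3 cKO libraries among them also had the highest mean microglial levels of all 12, whereas WT 5 had a lower one than every library but WT 3. Of 23 such genes 11 were tested, of which 1 rose and 0 fell, with 8 positive estimates and a median log2 fold change of 0.22. The mean centred log2 level of the 11 was −0.28, 0.08 and 0.44 (lowest, median, highest) in cKO and −0.31, −0.08 and 0.14 in WT, and their summed level was 17.7 to 28.1 CPM in cKO and 19.4 to 24.1 CPM in WT. Leaving out the 4 highest libraries was chosen after seeing the data. It takes away the 3 libraries with the highest microglial levels, so smaller microglial estimates follow in part from the choice itself. In that fit 0 of the 31 microglia genes were called, where 157 of 15659 tested genes were. Cx3cr1 had a log2 fold change of 0.14 (edgeR adjusted p = 0.416), Csf1r had 0.09 (adjusted p = 0.539), and the median of the 31 was 0.06. With the score as a covariate, Cx3cr1 had 0.21 (adjusted p = 0.0788) and Csf1r 0.13 (adjusted p = 0.126).

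In the authors' deposited table the adjusted p was 0.00961 for Cx3cr1, 0.0103 for Csf1r and 0.0428 for Selplg, the 3 microglia genes under 0.05, where the authors' deposited table had 3.71% of its 15180 genes with an adjusted p under 0.05. Positive log2 fold changes in the authors' deposited table numbered 28 among the 31 genes.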

How the data were processed

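Whole cerebella of 12 mice, 6 cKO and 6 WT by the labelled genotype, were compared. Replicate numbers follow the order of deposit and pair nothing. Per the labels' protocols, a stranded mRNA kit was used and all libraries shared the same lanes. Counts in the table deposited by the authors are raw, 1 row per gene symbol. The submitters' processing notes name STAR, DESeq2 and mm10 and give no versions; of the counting step, neither tool, strand nor annotation is given in the sources used here. Per the file headers, the authors also deposited a DESeq2 result with log2 fold changes, their standard errors, p-values and adjusted p-values. Its mean signal per gene (normalised counts averaged over libraries, by the authors) and its Wald score (test statistic, by the authors) were not used. The direction of its fold changes is not stated: over the 400 genes that both analyses called, every sign matched with positive meaning higher in cKO.

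The counts were fitted with edgeR 4.0.16 in R 4.3.3: filterByExpr (15467 of 18394 genes kept), TMM scaling, glmQLFit and glmQLFTest over all genes, Benjamini-Hochberg adjustment at 0.05, no fold minimum and no covariate. The test statistic gave the standard errors and 95% intervals. Log2 levels used a prior count of 2. Single genes were also tested by two-sided exact permutation over the 924 assignments. Correlations used SciPy 1.17.1. Alternatives were relative log expression scaling, no filter, DESeq2 1.42.0, counts thinned to 23803779 per library, the mean level of markers of regions outside the cerebellum as a covariate, 4 surrogate variables (sva 3.50.0) and leaving out each library. Leaving out the 4 libraries highest in those markers was chosen after seeing the data. The fit was tested on simulated counts, with detection required only for folds larger than those of the microglia genes. Replicates differed by more than counting noise (chi-square per degree of freedom at least 2.68), so each library counted as a sample; where nothing more is known of the animals, p-values measure the spread between these libraries.

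The members, the lists of other genes and the correlated pairs were chosen with earlier results of these data known. All 31 members are named, as are Crhr1 and Gabra6, and of each list the called genes, otherwise up to 4 genes with the smallest p; lists of vessel, glial and neuronal genes are mostly given as counts. Some genes that this rule names are not reported here, though sums and counts include them. Il34, Cx3cl1, Hmgxb3 and Naa35 were named after their values were seen. Positions came from GENCODE M21 (mm10), matched by symbol for all 31, and promoters from RefSeq (GRCm38.p6). Columns of sample values left unmatched numbered 0.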

Additional observations from a re-analysis of the deposited data

Results flagged for a closer look

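In 7 of the 62 combinations of gene and genotype, the highest or lowest of 6 libraries stood apart from the other 5 by more than 0.625 of the group's whole range. Chance alone flags about 1 in 20 such groups, and members that covary are not independent. cKO 2 was the high library in 4 of them. It measured 17.9 CPM for Cx3cr1, where the other cKO libraries lay between 14.1 and 15.5 CPM, and 3.93 CPM for Trem2 against 2.94 to 3.29 CPM. It measured 5.16 CPM for Fcrls, the others 3.56 to 3.93 CPM, and 12.4 CPM for Olfml3, the others 9.42 to 10.5 CPM. Without cKO 2 the log2 fold change of Cx3cr1 was 0.17 (edgeR adjusted p = 0.0492).

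Low values stood apart in the other cKO cases. Spi1 was at 0.835 CPM in cKO 6, with the other cKO libraries between 1.18 and 1.25 CPM. Cd68 was at 2.82 CPM in cKO 1, the others at 3.74 to 4.09 CPM. In WT, Ctss reached 37.0 CPM in WT 2, with the other WT libraries between 29.1 and 31.8 CPM.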

How the results depend on the processing

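No paired analysis was possible because the labels give the groups no shared replicate numbers. The 196 genes higher and 213 lower in cKO became 69 and 76 with surrogate variables and 89 and 68 without the 4 libraries highest in markers of other regions. With 1 library left out they ran from 134 to 214 and from 138 (without WT 3) to 248. The 2 called microglia genes became 1 on thinned counts (Cx3cr1, with 2.45% of all genes called) and 0 with the score covariate (1.99%), with surrogate variables (0.937%) and without those 4 libraries (157 of 15659 genes). With 1 library left out the number of called microglia genes ran from 0 to 2, and it was 0 without WT 1, WT 3, WT 5 or cKO 3. The called genes were not always the same: without WT 2 they were Csf1r and Selplg, not Cx3cr1. Members called lower numbered 0 in every fit run. Positive estimates, 28 with all libraries, numbered 21 without the 4 libraries (median log2 fold change 0.06), 23 with surrogate variables (median 0.09) and 25 to 31 with 1 library left out (median 0.08 to 0.14). With surrogate variables Cx3cr1 had 0.14 (edgeR adjusted p = 0.523) and Csf1r 0.10 (adjusted p = 0.578), and on thinned counts Csf1r had 0.14 (adjusted p = 0.0905).

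Small estimates changed sign, and the cause was not tested. With surrogate variables the log2 fold change was −0.036 for P2ry13, −0.022 for C1qa, −0.043 for C1qb, −0.26 for Fcrls and −0.029 for Aif1. Without the 4 libraries it was −0.081 for Gpr34, −0.015 for C1qa, −0.049 for C1qb, −0.017 for C1qc, −0.028 for Trem2, −0.038 for Ctss and −0.0064 for Aif1. C1qb had −0.010 on thinned counts, and Ly86 0.0073 with the score covariate. With 1 library left out, values ran from −0.0065 to 0.12 for Gpr34, −0.0061 to 0.097 for C1qa, −0.029 to 0.045 for C1qb, −0.037 to 0.037 for Cd33, −0.022 to 0.033 for Itgb5, −0.059 to 0.024 for Olfml3, −0.034 to 0.093 for Aif1 and −0.075 to 0.042 for Ly86.

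Among correlations, C1qa with C1qb had an r of 0.80 with genotype means removed (permutation, adjusted p = 0.0763) and 0.44 without the 2 libraries farthest from the median. Csf1r with Cx3cr1 had 0.63 and 0.78 in those settings, and Spi1 with Irf8 −0.24 with genotype means removed. With 1 library left out, r ran from 0.65 to 0.92 for C1qa with C1qb, 0.50 to 0.79 for C1qb with C1qc, 0.46 to 0.71 for C1qa with C1qc, 0.13 to 0.68 for Tyrobp with Trem2, 0.46 to 0.80 for P2ry12 with P2ry13, 0.45 to 0.69 for P2ry12 with Tmem119, 0.50 to 0.69 for Csf1r with Spi1 and −0.11 to 0.26 for Spi1 with Irf8. Precision was set by the spread between animals and by low counts, with standard errors of 0.04 to 0.16 on the log2 scale.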
